A study of Mus musculus with 6 samples.

Results

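Border macrophages are the resident macrophages of the meninges and of the spaces around brain vessels. The genes described here are 8 that are commonly used to tell them from microglia, *Mrc1*, *Cd163*, *Lyve1*, *Pf4*, *F13a1*, *Ms4a7*, *Cbr2* and *Stab1*. They were chosen by name, with earlier results of these data known, and they are 8 of the 18211 genes measured. All 8 passed the filter on low values and were among the 13792 genes tested. The measurements came from RNA-seq of oligodendrocyte precursor cells (OPCs), from which myelin-forming oligodendrocytes develop, and the question was whether the level of these genes in the OPC preparation differed between DISC1-Δ3 and wildtype mice.

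All mice were C57BL/6, were given tamoxifen by gavage on 4 days, from postnatal day 4 to postnatal day 7, and were used at postnatal day 7. DISC1-Δ3 mice were NG2-CreERTM:DISC1 exon3 fl/+, so that exon 3 was removed from 1 allele of *Disc1* in cells that drive Cre from the NG2 (*Cspg4*) promoter, which OPCs and pericytes use. The wildtype mice carried no CreERT, so the presence of CreERT and the deletion of the exon cannot be told apart. OPCs were taken from the cerebral hemispheres by immunopanning on Pdgfrα and were sequenced without culture, in 3 libraries for each genotype. How many animals went into a library, and whether the meninges were removed, is not given in the sources used here, so p-values measure the spread between these libraries, which may be partly technical.

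The 6 libraries held 13716619 to 16417219 reads, and all 48 counts of the 8 genes were whole numbers between 37 and 11512 reads. Levels are given as RPKM, reads scaled by transcript length and library size, which can be compared between genes because they are per length. *Disc1* had 3.51, 3.34 and 3.81 RPKM in the wildtype libraries and 2.86, 2.44 and 2.85 RPKM in the DISC1-Δ3 libraries, a log2 fold change of -0.45 (SE 0.088, adjusted p = 0.000528). That value is per gene and does not resolve exon 3. DISC1-Δ3 replicate 3 stood apart from its group: the chi-square per degree of freedom against the other DISC1-Δ3 libraries was 4.99 and 5.39, against 1.80 to 2.97 for the other pairs within a genotype. Without that library 4 of the 8 genes were called lower, as with it. Adjusted p-values here come from edgeR over all 13792 genes, with a threshold of 0.05, and log2 fold changes are of counts scaled by TMM, which assumes that most genes do not change.

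Border macrophages and microglia are both tissue macrophages that depend on the receptor Csf1r and on the transcription factor PU.1, but they differ in place and in surface proteins. Border macrophages sit beside vessels and in the meninges, take up material from cerebrospinal fluid and blood, and carry receptors for mannose, hyaluronan and haemoglobin. Microglia lie within the brain tissue, carry the receptor P2ry12, and in adults make little or none of most of the proteins described here. How much of them microglia make at postnatal day 7 was not tested. None of the 8 genes is known as a marker of the oligodendrocyte lineage.

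Macrophage marker genes together stood at higher levels than OPC marker genes in the preparation. Such levels also depend on how strongly a cell makes each gene and on which genes are listed. They do not measure the share of RNA from each cell type. *Csf1r*, the receptor for the main macrophage growth factors, stood at 105 to 108 times the RPKM of *Pdgfra*, the gene for the panning antigen, in the wildtype libraries and at 49.4 to 53.2 times in the DISC1-Δ3 libraries. The summed level of 14 genes that most macrophages make was 16357 to 16531 RPKM in wildtype and 11391 to 11965 RPKM in DISC1-Δ3, against 434 to 445 and 585 to 624 RPKM for 8 OPC genes. The 8 border macrophage genes together took 0.0939% to 0.0991% of the reads of the wildtype libraries and 0.0785% to 0.0799% of the reads of the DISC1-Δ3 libraries. In bulk RNA, fewer cells of a type and less RNA per cell cannot be told apart.

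**Figure D1:**
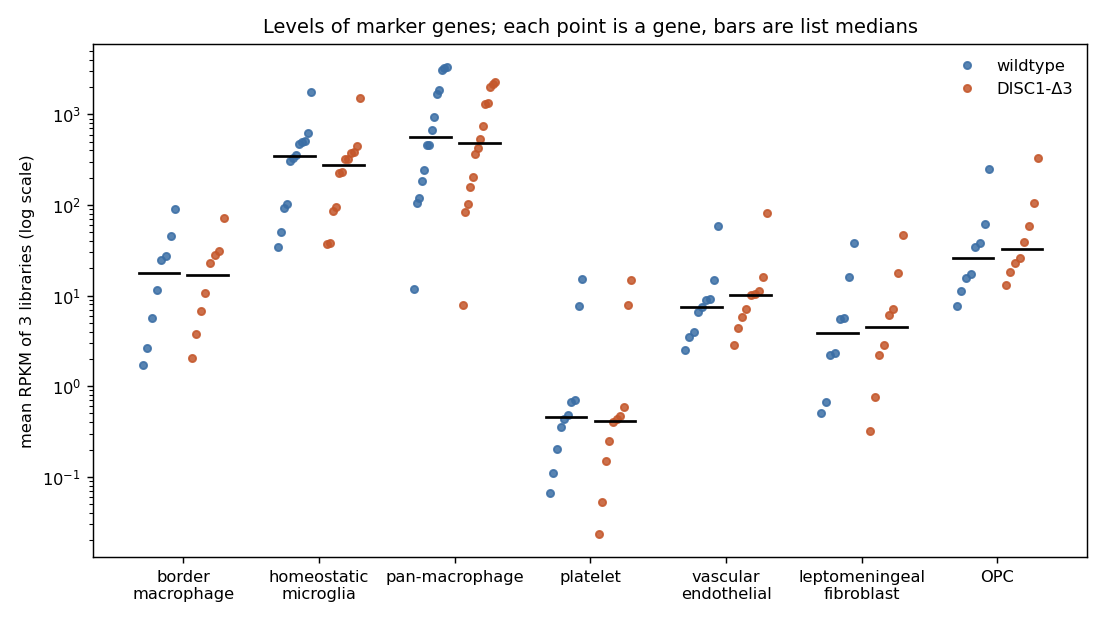
Each point is the mean RPKM of 1 gene over the 3 libraries of a genotype, on a log scale, for 7 gene lists, and black bars are list medians. The border macrophage genes lie between 1.74 and 89.7 RPKM in wildtype, below most of the homeostatic microglia and pan-macrophage genes and above most of the platelet genes.

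Levels of the 8 genes spanned a wide range. In wildtype the order by RPKM was *Stab1*, *Cbr2*, *Mrc1*, *Pf4*, *F13a1*, *Lyve1*, *Ms4a7* and *Cd163*, and the libraries of neighbours in that order did not overlap. *Stab1* was higher than 93.4% of all 18211 measured genes in DISC1-Δ3 and *Cd163* was higher than 37.8%. In that genotype *Pf4* stood above *Mrc1*, and its libraries, at 26.51 to 29.89 RPKM, overlapped those of *Cbr2*, at 29.18 to 33.43 RPKM. The order of the others was the same.

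Of the 8 genes, 4 were lower in DISC1-Δ3 (*Cbr2*, *Stab1*, *Mrc1* and *F13a1*) and none was higher. Over all tested genes 19.5% were called lower and 20.4% higher, or 39.9% in either direction. The median log2 fold change of the 8 genes was -0.03, against 0.01 for all tested genes, so the genes did not move as a block: the fitted values ran from -0.64 for *Cbr2* to 0.44 for *Ms4a7*. At an unadjusted p under 0.05, edgeR gave 4 lower and 1 higher, where 23.2% of all tested genes were lower and 24.7% higher. DESeq2 called 3 lower and 0 higher, against 17.2% and 16.2% of all tested genes. The limma fit to log2(RPKM + 1) called 3 lower and 2 higher, against 12.9% and 28.9%, so its count of higher genes was near that background. For a single gene, an exact two-sided permutation test of 3 libraries against 3 cannot give a p below 0.1.

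**Figure D2:**
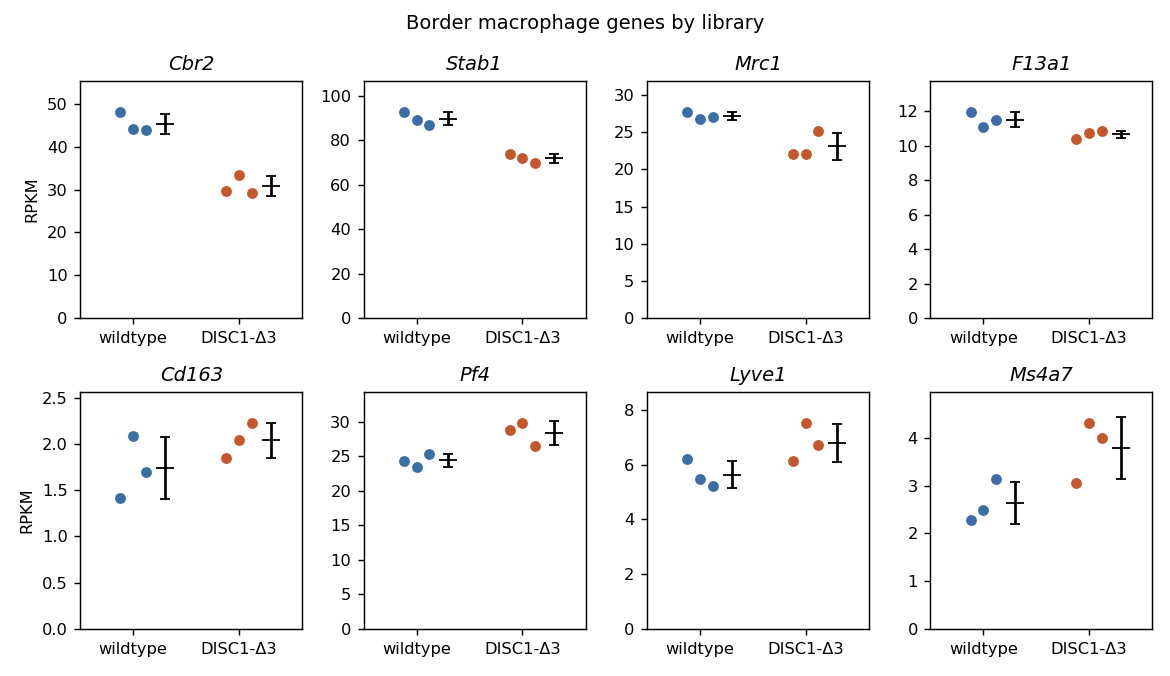
RPKM of each of the 8 genes, with a point for each library (3 wildtype in blue, 3 DISC1-Δ3 in orange) and bars for the mean ± SD; each axis starts at 0 and has its own scale. The groups are apart for *Cbr2*, *Stab1*, *Mrc1* and *F13a1*, with DISC1-Δ3 lower, and for *Pf4*, with DISC1-Δ3 higher, while *Cd163*, *Lyve1* and *Ms4a7* overlap.

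The promoters of the 4 genes that fell are shown because PU.1 and the MAF factors, which act in macrophages, bind short known motifs. The sequences are from RefSeq on build GRCm38.p6 and run from 250 bases before to 50 bases after the transcript start, 5′ to 3′ on the gene's strand. Capitals mark the PU.1 core GAGGAAG and TGCTGAC, which is a part of the MAF site, on either strand. The AP-1 site TGACTCA was also searched. *Cbr2* lies at chr11:120731972-120732271 on the minus strand, with 1 PU.1 core and 1 TGCTGAC. *Stab1* lies at chr14:31168592-31168891 on the minus strand, with no match. *Mrc1* lies at chr2:14229164-14229463 on the plus strand, with 2 PU.1 cores. *F13a1* has a start at chr13:37050195-37050494 and another at chr13:37049164-37049463, both on the minus strand, with 2 and 1 PU.1 cores.
Cbr2: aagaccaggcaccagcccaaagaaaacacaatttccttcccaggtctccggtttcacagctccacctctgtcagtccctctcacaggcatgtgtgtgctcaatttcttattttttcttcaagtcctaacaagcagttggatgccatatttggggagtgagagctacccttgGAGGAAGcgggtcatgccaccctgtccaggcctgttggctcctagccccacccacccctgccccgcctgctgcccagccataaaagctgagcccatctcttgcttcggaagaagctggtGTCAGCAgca
Stab1: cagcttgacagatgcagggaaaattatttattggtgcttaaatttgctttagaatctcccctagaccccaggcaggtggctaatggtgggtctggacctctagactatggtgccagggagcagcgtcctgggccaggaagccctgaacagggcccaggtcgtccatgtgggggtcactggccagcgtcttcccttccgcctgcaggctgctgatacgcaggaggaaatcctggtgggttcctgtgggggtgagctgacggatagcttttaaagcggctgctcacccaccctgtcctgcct
Mrc1: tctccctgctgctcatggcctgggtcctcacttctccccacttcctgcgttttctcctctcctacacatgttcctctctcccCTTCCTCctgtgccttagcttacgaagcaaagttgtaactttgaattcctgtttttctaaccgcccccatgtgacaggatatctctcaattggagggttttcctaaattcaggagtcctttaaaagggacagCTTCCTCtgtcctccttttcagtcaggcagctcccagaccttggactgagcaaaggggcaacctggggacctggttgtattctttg
F13a1, first start: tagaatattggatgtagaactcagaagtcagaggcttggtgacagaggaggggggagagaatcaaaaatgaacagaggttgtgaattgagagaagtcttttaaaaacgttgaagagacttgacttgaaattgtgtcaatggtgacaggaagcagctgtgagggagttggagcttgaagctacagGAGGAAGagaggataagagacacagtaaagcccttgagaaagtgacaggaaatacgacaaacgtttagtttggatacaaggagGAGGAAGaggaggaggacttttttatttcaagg
F13a1, second start: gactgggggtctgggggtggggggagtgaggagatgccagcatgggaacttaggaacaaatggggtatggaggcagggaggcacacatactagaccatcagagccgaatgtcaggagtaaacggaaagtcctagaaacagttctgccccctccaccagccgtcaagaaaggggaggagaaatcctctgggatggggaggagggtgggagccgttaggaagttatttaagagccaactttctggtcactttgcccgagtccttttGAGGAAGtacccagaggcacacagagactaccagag

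Of the 8 genes, 7 were in the promoter table, with 9 promoters; *Lyve1* was not. GAGGAAG was found in 5 of the 9, against 13.6% of all 32851 promoters of the same length in the table. Both starts of *F13a1* are among the 5, so these are not 5 separate genes. The fifth was that of *Pf4*, a gene not called different. TGCTGAC was found in 1 of the 9, against 4.67% of all promoters, and TGACTCA in 0 of the 9, against 5.2%. The last pair of motifs share the letters TGAC. Genes that fell and genes that did not were thus both found with and without a PU.1 core in this window, and a match is a description of letters, not of binding.

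*Mrc1* (gene ID 17533, chr2:14229414-14332023) encodes the mannose receptor CD206, which takes up glycoproteins and is the marker most used for border macrophages. It had 27.73, 26.81 and 27.01 RPKM in the wildtype libraries and 22.08, 22.04 and 25.21 RPKM in the DISC1-Δ3 libraries. The groups did not overlap, which held in the lower direction for 16.1% of all tested genes, and DISC1-Δ3 replicate 3 was the highest of its group. *Mrc1* fell by 0.32 on the log2 scale (SE 0.052, 95% interval -0.42 to -0.21, adjusted p = 0.000101), to 0.804 times the wildtype level. Without DISC1-Δ3 replicate 3 the log2 fold change was -0.38.

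*Stab1* (gene ID 192187, chr14:31139017-31168651) encodes stabilin-1, a scavenger receptor of macrophages and of sinusoidal endothelium. Its levels were 92.78, 89.33 and 87.10 RPKM in wildtype and 73.88, 72.20 and 69.67 RPKM in DISC1-Δ3. All 3 wildtype libraries were above all 3 DISC1-Δ3 libraries, with 8251 to 11512 reads behind each value. It fell by 0.40 (log2; SE 0.043, 95% interval -0.49 to -0.31, adjusted p = 8.25e-07), to 0.757 times. *Stab1* alone made up 42.5% to 43.6% of the summed RPKM of the 8 genes in wildtype and 39.6% to 42.0% in DISC1-Δ3, so sums over the genes follow it closely.

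*Cd163* (gene ID 93671, chr6:124304636-124330529) encodes the receptor for complexes of haemoglobin and haptoglobin. It was the lowest of the 8 genes, at 1.42, 2.09 and 1.70 RPKM in wildtype and 1.85, 2.04 and 2.23 RPKM in DISC1-Δ3. The groups overlapped, and 84 to 154 reads lay behind each value. The log2 fold change was 0.14 with a 95% interval of -0.17 to 0.45 (adjusted p = 0.486), which leaves room for a fall or a rise of that size.

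*Lyve1* (gene ID 114332, chr7:110850607-110862953) encodes a hyaluronan receptor of perivascular and meningeal macrophages and of lymphatic endothelium. Wildtype libraries had 6.20, 5.48 and 5.24 RPKM, and DISC1-Δ3 libraries had 6.15, 7.54 and 6.71 RPKM. Wildtype replicate 1 lay above DISC1-Δ3 replicate 1, so the groups overlapped. The log2 fold change was 0.20 (SE 0.106, 95% interval -0.03 to 0.42, adjusted p = 0.156). Scaling by library totals instead of TMM gave 0.28 with an adjusted p of 0.0460, on the other side of the threshold.

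*Pf4* (gene ID 56744, chr5:90772435-90773383) encodes platelet factor 4, a chemokine made by megakaryocytes and, in brain, by border macrophages. It had 24.36, 23.48 and 25.42 RPKM in wildtype and 28.86, 29.89 and 26.51 RPKM in DISC1-Δ3. In RPKM the groups did not overlap and DISC1-Δ3 was higher, which held for 35.9% of all tested genes. With TMM scaling the log2 fold change was 0.14 (SE 0.109, 95% interval -0.09 to 0.37, adjusted p = 0.320). RPKM carries no TMM factor, and those factors were 0.970 to 0.973 in wildtype and 1.02 to 1.04 in DISC1-Δ3. In the limma fit to log2(RPKM + 1) the gene was called higher, at 0.21 (adjusted p = 0.0124).

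*F13a1* (gene ID 74145, chr13:36867178-37050244) encodes the A subunit of coagulation factor XIII, the enzyme that cross-links fibrin, and is made by macrophages and megakaryocytes. The wildtype libraries had 11.96, 11.07 and 11.50 RPKM and the DISC1-Δ3 libraries had 10.40, 10.74 and 10.83 RPKM. The groups did not overlap, but the lowest wildtype library lay close to the highest DISC1-Δ3 library. It fell by 0.19 (log2; SE 0.065, 95% interval -0.33 to -0.05, adjusted p = 0.0262), to 0.876 times. This call was lost in 9 of 17 alternatives, with adjusted p-values of up to 0.225, among them leaving out wildtype replicate 1 (0.0885), wildtype replicate 3 (0.0707) or DISC1-Δ3 replicate 1 (0.0518). A stricter threshold of 0.01 on the same fit is also among the 9.

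*Ms4a7* (gene ID 109225, chr19:11321039-11336146) encodes a membrane protein of the MS4A family and marks border macrophages and macrophages that enter the brain from blood. It had 2.29, 2.49 and 3.14 RPKM in wildtype and 3.06, 4.32 and 4.00 RPKM in DISC1-Δ3, from 37 to 83 reads. Wildtype replicate 3 lay above DISC1-Δ3 replicate 1. The log2 fold change was 0.44 (SE 0.195, 95% interval 0.03 to 0.85, unadjusted p = 0.0386, adjusted p = 0.0854). It was past the threshold in 5 of 17 alternatives, among them leaving out DISC1-Δ3 replicate 1 (log2 fold change 0.54, adjusted p = 0.0485).

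*Cbr2* (gene ID 12409, chr11:120729485-120732025) encodes a carbonyl reductase and is the only enzyme of metabolism among the 8. It had 48.11, 44.17 and 43.82 RPKM in wildtype and 29.73, 33.43 and 29.18 RPKM in DISC1-Δ3. The groups stood well apart, from 370 to 633 reads in each library. It had the lowest fold change of the 8 genes, a fall of 0.64 on the log2 scale (SE 0.078, 95% interval -0.80 to -0.47, adjusted p = 3.53e-06), to 0.643 times the wildtype level.

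Some of the 8 genes were also read relative to each other, most of them relative to *Pf4*. For *Cbr2* over *Pf4*, the ratio of RPKM was 1.98, 1.88 and 1.72 in the wildtype libraries and 1.03, 1.12 and 1.10 in the DISC1-Δ3 libraries. *Stab1* over *Pf4* was 3.81, 3.80 and 3.43 in the wildtype libraries against 2.56, 2.42 and 2.63 in the others, and *Mrc1* over *Pf4* was 1.14, 1.14 and 1.06 against 0.765, 0.737 and 0.951. In each of these ratios the groups did not overlap. *Mrc1* over *Stab1* did overlap, at 0.299, 0.300 and 0.310 against 0.299, 0.305 and 0.362. Ratios within a library do not depend on the scaling between libraries, but these pairs were chosen after their values were seen and were not tested. All ratios to *Pf4* share its 146 to 215 reads in a library, and no share over other pairs of genes was worked out.

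The sum over the 8 genes was 204.9 to 214.9 RPKM in wildtype and 174.3 to 182.2 RPKM in DISC1-Δ3, or 85.2% of the wildtype mean. The sum of the 14 pan-macrophage genes was 71.5% of the wildtype mean in DISC1-Δ3 and that of 12 homeostatic microglia genes was 78.9%. For each 1000 RPKM of pan-macrophage genes the border macrophage genes therefore gave 13.1, 12.5 and 12.4 RPKM in wildtype and 14.8, 15.2 and 15.3 RPKM in DISC1-Δ3. For each 1000 RPKM of microglia genes they gave 42.2, 39.8 and 39.2 RPKM against 43.6, 44.3 and 43.1 RPKM. Both ratios were higher in every DISC1-Δ3 library than in any wildtype library. Relative to pan-macrophage RPKM, the same held for 81.6% of all tested genes, so that ratio is not particular to the border macrophage genes. No such share was worked out for the microglia genes.

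The direction of the single genes depended on the reference. Scaled to the summed counts of the 14 pan-macrophage genes, a scaling added after the data were seen, the median log2 fold change of all tested genes moved to 0.55 and 80.6% of them were called higher. On that scale 7 of the 8 genes were higher and none was lower, where 1.88% of all genes were lower, and the median of the 8 was 0.52. *Stab1*, *Mrc1* and *F13a1* changed sign, to 0.14, 0.23 and 0.35. Of the 14 pan-macrophage genes themselves, 8 were called higher and 2 lower on that scale, with a median of 0.12. *Cd163*, *Pf4*, *Lyve1* and *Ms4a7* stood at 0.68, 0.68, 0.74 and 0.98. *Cbr2* stood at -0.10 (SE 0.079, adjusted p = 0.270), a fall close to that of the summed pan-macrophage genes. Gene by gene, as RPKM for each 1000 RPKM of pan-macrophage genes, 7 of the 8 had every DISC1-Δ3 library above every wildtype library, which held for 81.6% of all tested genes, while the opposite held for 1.97%. *Pf4*, for example, stood at 1.49, 1.44 and 1.54 in wildtype libraries and at 2.43, 2.50 and 2.33 in DISC1-Δ3 libraries, and *Cbr2*, which overlapped, at 2.94, 2.70 and 2.65 against 2.50, 2.79 and 2.56. A share of 7 in 8 called higher is close to that of all tested genes on this scale, so no change particular to the border macrophage genes can be read from the count.

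**Figure D3:**
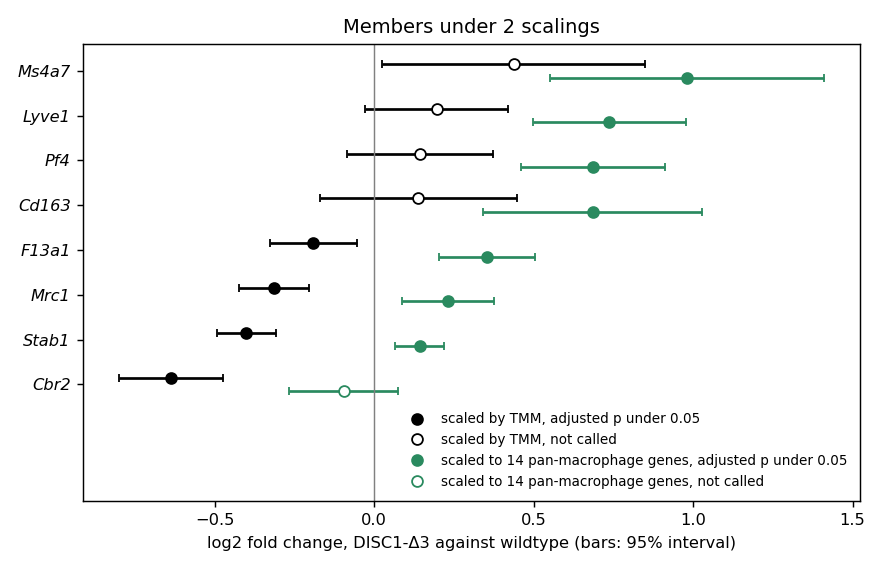
Log2 fold change of DISC1-Δ3 against wildtype for each of the 8 genes with its 95% interval, scaled by TMM (black) or to the 14 pan-macrophage genes (green), with filled points for an adjusted p under 0.05. On the TMM scale the genes spread to both sides of 0, from -0.64 to 0.44, and on the other they lie between -0.10 and 0.98.

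A further list of 24 genes known from border macrophages, none of them among the 8, was read from the same fit. Of the 22 that were tested, 12 fell, 2 rose and 8 were not called, with a median log2 fold change of -0.28. Among all tested genes the same fit called 19.5% lower and 20.4% higher. *Ms4a6c*, another MS4A family gene, fell by 1.29 (log2; adjusted p = 4.08e-10), from 41.8 to 17.9 RPKM on average. *Tgfbi*, a secreted matrix protein, fell from 52.3 to 27.7 RPKM (adjusted p = 1.59e-10). *Ms4a6b* fell by 0.68, *Fcgrt*, the neonatal Fc receptor, by 0.52, and *Gas6*, a ligand of the Axl and Mertk receptors, by 0.27. Both *Ms4a6c* and *Tgfbi* are also made by monocytes. Scaled to the pan-macrophage genes, 13 of the 22 were called higher, against 80.6% of all tested genes, and 2 were called lower, *Ms4a6c* at -0.75 and *Tgfbi* at -0.45, against 1.88%.

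The genes that rose on that list were *Folr2*, the folate receptor of perivascular macrophages, and *Cd209f*, a lectin. *Folr2* had 11.77, 12.62 and 11.83 RPKM in wildtype and 16.29, 15.85 and 15.84 RPKM in DISC1-Δ3, with a log2 fold change of 0.33 (adjusted p = 0.014). Its groups did not overlap, which held in the higher direction for 35.9% of all tested genes. *Cd209f* had 1.87, 1.29 and 2.11 RPKM in wildtype and 2.80, 3.53 and 2.18 RPKM in DISC1-Δ3 (log2 fold change 0.64, adjusted p = 0.0459). Both were named after their values were seen, and DESeq2 called 0 genes of this list higher. *Lyve1*, *Pf4*, *Cd163* and *Ms4a7* also had a positive value, but none of them was called. Of the 22 tested genes of the further list, 18 had a negative value and 4 a positive one. *Siglec1* was called lower, at -0.40 (adjusted p = 0.000572), and the lectins *Clec10a* and *Mgl2* were not called, at -0.14 and 0.06.

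**Figure D4:**
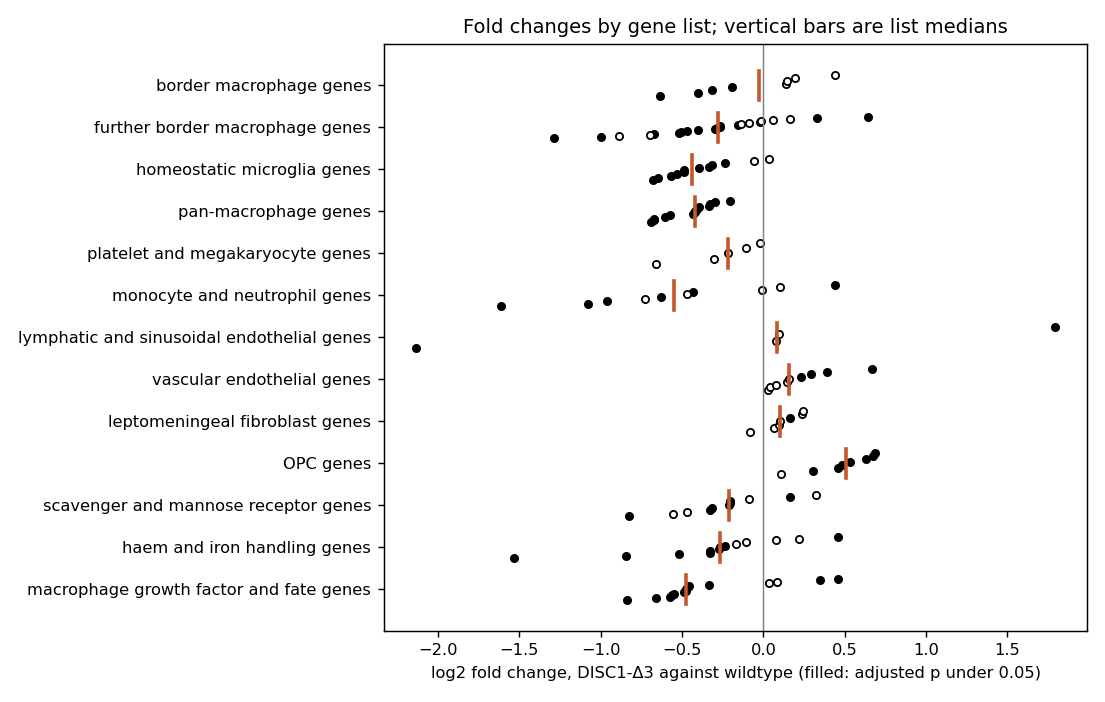
Log2 fold change of DISC1-Δ3 against wildtype for every tested gene of each list, with filled points for an adjusted p under 0.05 and vertical bars for list medians; points are spread vertically only to keep them apart. The 8 border macrophage genes lie on both sides of 0 with a median of -0.03, the 14 pan-macrophage genes all lie below 0, and the 8 OPC genes all lie above 0.

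Microglia and general macrophage genes were lower with few exceptions. All 14 pan-macrophage genes fell, where 19.5% of all tested genes were called lower, with a median log2 fold change of -0.42. *C1qa* and *C1qb*, complement subunits, fell by 0.67 and 0.69, *Ptprc*, the leukocyte antigen CD45, by 0.67, *Csf1r* by 0.58 and *Cd68*, a lysosomal protein, by 0.21. Of 12 homeostatic microglia genes 10 fell, with a median of -0.44. *Tmem119*, a microglial membrane protein, fell by 0.65, *Selplg* by 0.68, *Fcrls* by 0.57, *Sall1*, the microglial transcription factor, by 0.49, and *P2ry12*, the purinergic receptor, by 0.23. *Cbr2* thus had a fold change near those of *Csf1r*, *C1qa* and *Tmem119*, *Stab1* (-0.40) lay near the pan-macrophage median, and *Mrc1* (-0.32) lay closer to 0. The difference between *Cd163*, *Lyve1*, *Pf4* and *Ms4a7* on 1 side and the macrophage lists on the other was not tested as a group.

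Several of the 8 genes are made by cells other than border macrophages, and markers of these cells were measured in the same libraries. For *Pf4* and *F13a1* these are platelets and megakaryocytes. Of 10 such genes 5 were tested and 0 were called by edgeR, with 1 lower at an unadjusted p under 0.05 and 0 called by DESeq2 or limma. *Ppbp*, a platelet chemokine whose gene lies in the same cluster as *Pf4*, had 0.39, 0.52 and 0.52 RPKM in wildtype and 0.45, 0.26 and 0.60 RPKM in DISC1-Δ3, far below *Pf4*. *Gp6* was at 0 in DISC1-Δ3 replicates 2 and 3, and the summed level of the 10 genes was 25.24 to 26.71 RPKM in wildtype and 23.74 to 26.44 RPKM in DISC1-Δ3, nearly all of it *Gp1bb* and *Gp9* (log2 fold changes -0.11 and -0.02, neither called).

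For *Lyve1* and *Stab1* the other source is lymphatic or sinusoidal endothelium. *Prox1*, the transcription factor of lymphatic endothelium, which neural precursors and the oligodendrocyte lineage also make, was at 3.60 to 3.73 RPKM in wildtype and at 12.68 to 15.08 RPKM in DISC1-Δ3 (log2 fold change 1.80, adjusted p = 2.88e-12). *Stab2*, the partner of *Stab1* in sinusoidal endothelium, was at 0.02 to 0.05 RPKM in all libraries and was not tested. *Flt4* and *Pdpn* were not called, at 0.09 and 0.08, and *Ccl21a*, at 2.00, 4.36 and 0 RPKM in wildtype and 0.49, 0.72 and 0.35 RPKM in DISC1-Δ3, was called lower although its groups overlapped. The summed level of the 5 genes was 28.55 to 33.92 RPKM in wildtype and 40.08 to 43.71 RPKM in DISC1-Δ3. Most of that difference was *Prox1*, and the part of lymphatic or sinusoidal endothelium in the *Lyve1* values was not tested.

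Border macrophages live among vessels and meningeal fibroblasts. Of 9 vascular endothelial genes 4 rose and none fell, among them *Cldn5*, the tight junction protein, by 0.39 (58.5 to 80.9 RPKM on average), *Emcn* by 0.67 and *Flt1* by 0.29, and the summed level was 112.5 to 116.7 RPKM in wildtype and 148.1 to 150.6 RPKM in DISC1-Δ3. Of 7 tested genes of leptomeningeal fibroblasts, the cells of the inner meninges, 1 rose, *Igf2* by 0.16, and *Dcn*, a proteoglycan of these cells, had 2.33 and 2.88 RPKM on average (0.24, adjusted p = 0.351). The summed level of the 8 fibroblast genes was 70.35 to 72.48 RPKM in wildtype and 79.85 to 87.35 RPKM in DISC1-Δ3. Both sums were higher in DISC1-Δ3 and that of the 8 border macrophage genes was lower. The largest part of each sum came from 1 gene, *Cldn5* in the vascular list and *Igf2* (38.6 and 47.0 RPKM on average) in the fibroblast list. Among all tested genes 20.4% were called higher, and 35.9% had RPKM of the groups apart in that direction. The part of either cell type in the values of *Lyve1*, *Pf4*, *Cd163* and *Ms4a7* was not tested.

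*Ms4a7* and *Cd163* can also come from cells that enter from blood. Of 10 tested monocyte and neutrophil genes 5 fell and 1 rose, with a median log2 fold change of -0.55. The shares over all tested genes were 19.5% and 20.4%. *Chil3* fell by 1.62, *Plac8* by 1.08, *Ly6c2*, a surface antigen of inflammatory monocytes, by 0.96, and the neutrophil genes *S100a8* and *S100a9* by 0.63 and 0.43, while *Ltf*, a granule protein of neutrophils, rose by 0.44. *Elane* was at 0 in all wildtype libraries and *Ccr2* was at 0.08 to 0.30 RPKM. The summed level of the 13 genes was 221.9 to 248.8 RPKM in wildtype and 158.6 to 174.1 RPKM in DISC1-Δ3.

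Marker genes of OPCs, the cells that were panned for, moved the other way from the macrophage genes. Of 8 OPC genes 7 rose, where 20.4% of all tested genes were called higher, with a median log2 fold change of 0.51. *Pdgfra* had 18.06, 17.22 and 17.16 RPKM in wildtype and 26.79, 24.96 and 25.83 RPKM in DISC1-Δ3, an increase of 0.48 (adjusted p = 2.42e-07). *Cspg4*, whose promoter drove Cre, rose by 0.46, *Gpr17* by 0.68 and *Olig1* by 0.31, and *Sox10* was not called, at 0.11. Relative to *Pdgfra*, *Mrc1* stood at 1.54, 1.56 and 1.57 in the wildtype libraries and at 0.824, 0.883 and 0.976 in the DISC1-Δ3 libraries. Markers of OPCs and of macrophages thus moved in opposite directions between the genotypes, and the part of the cell mix in the values of the 8 genes was not tested.

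Genes with roles near those of the 8 were read from lists chosen by function. Among 16 scavenger and mannose receptor genes 11 were tested. Of these 6 fell and 1 rose, against 19.5% and 20.4% of all tested genes, with a median log2 fold change of -0.21. *Msr1*, the class A scavenger receptor, fell by 0.82 (adjusted p = 0.000408), *Lrp1* by 0.33, *Scarb1* by 0.32 and *Scarb2*, a lysosomal protein, by 0.21, and *Mrc2*, the mannose receptor family member of fibroblasts, rose by 0.16 (adjusted p = 0.0374). *Mrc1* and *Stab1* thus lay in the direction of most of this list.

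Another list held genes of haem and iron handling, the pathway in which *Cd163* acts. Of its 13 tested genes 8 fell and 1 rose, against 19.5% and 20.4% of all tested genes, with a median of -0.27. *Hp*, haptoglobin, which binds free haemoglobin for uptake by CD163, fell by 1.53 (adjusted p = 5.67e-07), from 6.18 to 2.26 RPKM on average. *Hmox1*, haem oxygenase 1, which breaks down the haem taken up, fell by 0.52 (adjusted p = 5.63e-08), from 260.2 to 191.6 RPKM, and *Slc11a1*, an iron transporter of macrophage phagosomes, fell by 0.85. The ferritin chains *Ftl1* and *Fth1* fell by 0.27 and 0.33, and *Slc11a2*, another iron transporter, rose by 0.46. *Cd163* itself was not called, and microglia and monocytes also make most of these genes.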

How the data were processed

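RNA from immunopanned OPCs was sequenced on a BGISEQ-500 as single-end reads of 50 bases, in 3 wildtype and 3 DISC1-Δ3 libraries. The authors deposited, for 18211 genes, an expected count, in which shared reads are split between genes and of which 90.2% of the values above 0 were whole, and an RPKM to 2 decimals. The submitters' processing notes name Bowtie2 2.2.5 and mm10; the study's text names DESeq2; the counting tool is not given in the sources used here. The table's 4 columns of group averages were left out.

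Expected counts were rounded and tested with the quasi-likelihood test of edgeR 4.0.16 in R 4.3.3 (TMM scaling, genotype as the only term), for the 13792 genes that reached 0.5 RPKM in 3 or more libraries. Two-sided p-values were adjusted (Benjamini-Hochberg) across these genes, with a threshold of 0.05. Alternatives used DESeq2 1.42.0 and limma 3.58.1. The edgeR, DESeq2 and limma fits were tested on simulated data. The 8 genes, the other lists and the pathway genes were chosen with earlier results of these data known. All lists were described by counts and medians without a test of the list. Some genes are shared between lists, among them *Csf1r*, *Spi1*, *Cd68*, *Sall1*, *Maf* and *Lrp1*, so the lists are not separate results. Beside the 8 genes, the text names from each list the 3 called genes with the largest fold change and no overlap, the 3 with the highest mean RPKM, and a set of defining markers. Further genes from the lists were picked with their values in view. Some genes of these lists are not reported by name. Gene and promoter positions and sequences are from RefSeq tables on GRCm38.p6, the build that mm10 denotes. Groups and replicate numbers were taken from the labels.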

Additional observations from a re-analysis of the deposited data

How the results depend on the processing

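Over 17 alternative settings, *Cbr2* (log2 fold change -0.72 to -0.55), *Stab1* (-0.44 to -0.32) and *Mrc1* (-0.38 to -0.23) remained called lower, and *Cd163* (0.02 to 0.30) was not called in any. *F13a1* (-0.22 to -0.10) kept its call in 8 and lost it in 9, with adjusted p-values of 0.0176 to 0.225. The 9 include a threshold of 0.01 on the unchanged fit, and the cause of the other losses was not tested. The count of the 8 genes called lower was 3 to 4. The count called higher was 2 with library totals, with RPKM sums and with limma at pseudocounts of 1 and of 0.1, and 0 to 1 when 1 library was left out. Scaling moved the split of all calls: 51.1% were higher with TMM, 69.2% with library totals and in both limma fits, and 70.1% with RPKM sums. Genes called over the whole table numbered 3787 to 6232. Scaled to the 14 pan-macrophage genes, a scale added once the values were known, 11370 genes were called, 97.7% of them higher. Of the 8 genes 7 were higher and 0 lower there, and *F13a1* (0.35), *Mrc1* (0.23) and *Stab1* (0.14) changed sign. That scale raises all genes by the fall of the summed counts of the 14, not by the fall of each. Of the 14 themselves, 8 were called higher on it and 2 lower. With the replicate block 5429 genes were called, and 4 and 0 of the 8 genes were lower and higher, with no call of a single gene among the 8 changed. Correlations of the deviations of same-numbered libraries from their group means were 0.117, 0.0305 and -0.0340, against -0.100 to 0.0624 for the other pairs. With 3 libraries in each group these values cannot exclude a pairing. Depth limits *Ms4a7* and *Cd163* most, with as few as 37 and 84 reads in a library.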

Other observations

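Genes that set macrophage growth and fate were read from a list of 15, all of which were tested. Of these 11 fell and 2 rose, against 19.5% and 20.4% of all tested genes, with a median log2 fold change of -0.48. *Csf2rb* and *Csf3r*, receptor chains for colony-stimulating factors, fell by 0.84 and 0.66, and *Spi1*, which encodes PU.1, fell by 0.34. *Maf*, a transcription factor of border macrophages and other tissue macrophages, had 40.33, 37.25 and 35.74 RPKM in wildtype and 30.42, 28.13 and 28.02 RPKM in DISC1-Δ3, without overlap, and fell by 0.47 (edgeR, adjusted p = 2.28e-06); it was named after its values were seen. *Il34*, a ligand of Csf1r that neurons make, rose by 0.46 (adjusted p = 0.0207), *Id3* rose by 0.35, and *Csf1*, the other ligand, was not called, at 0.04 (adjusted p = 0.581).

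The mean profile of the 8 border macrophage genes over the 6 libraries was nearly flat, since rises and falls among them offset each other. Among 12543 genes of at least 1 RPKM on average, those on no list here with the smallest mean absolute difference from it on the log2(RPKM + 0.1) scale were *Nrarp* (0.0124), *Dnttip1* (0.0126), *Rac1* (0.0134), *Gapvd1* (0.0134) and *Emc3* (0.0136). None of these was called by edgeR, with adjusted p-values of 0.189, 0.464, 0.290, 0.687 and 0.107.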
